A study of Mus musculus with 12 samples.

Results

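The ribosome-bound RNA of normal cortical astrocytes at baseline is described here from the wild-type libraries of a fragile X study, which are 3 of its 6 libraries. They were chosen by their genotype label alone, and each has 2 entries in the count table, so that 6 of 12 entries were summed to 3 libraries. All came from the somatosensory cortex of Fmr1+/y Aldh1l1-TRAP mice on an FVB/C57 background at postnatal day 40, with no treatment named. The other 3 libraries, labelled Fmr1 knockout, were used for a single check of the labels and in no comparison. The libraries are referred to as 13, 15 and 17 after the numbers in their labels, which have no order. The labels do not say that each came from a separate animal, so the spread between libraries may be partly technical.

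Translating ribosome affinity purification (TRAP) uses a mouse in which a chosen promoter drives a ribosomal protein fused to green fluorescent protein. Beads that carry an antibody to this tag then pull down ribosomes of the chosen cells with the RNA bound to them. Here the promoter is that of Aldh1l1, an enzyme of folate metabolism that most astrocytes make, so the model covers cells that use this promoter, and the RNA is what was bound to their ribosomes and not the whole transcriptome. Some RNA of other cells sticks to the beads in such preparations, and the input RNA of the tissue was not analysed here. Astrocytes take up glutamate and potassium after synaptic activity, make glutamine, supply lactate and cholesterol, wrap vessels with endfeet and secrete factors that act on synapses. In a bulk sample, fewer cells of a type and less RNA per cell cannot be told apart.

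After RNA features that collect ribosomal RNA reads were left out, the libraries held 19601657, 20728643 and 20817692 counts. The left-out features took 0.939% of library 13, 7.45% of library 15 and 1.75% of library 17. Levels are counts divided by the remaining total and scaled to a total of 1000000 (CPM), and 1 count was worth 0.048 to 0.051 CPM. A gene with no count could therefore have had up to 0.153, 0.145 and 0.144 CPM in libraries 13, 15 and 17, taking 3 counts as the limit, for counting error only. Fmr1 stood at 37.9, 46.8 and 46.5 CPM in the wild-type libraries and between 1.58 and 5.22 CPM in the 3 libraries labelled knockout, so no library went against its label. Genes of the Y chromosome were present in all 3 libraries, with Ddx3y at 53.1, 50.5 and 56.5 CPM. Xist, the RNA of the inactive X chromosome, had 0.561 CPM in library 13 and no count in the other libraries, as in male tissue.

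The libraries held RNA of a large part of the genome. In each of the 3 libraries 13171 genes reached 1 CPM, 9234 reached 10 CPM, 1795 reached 100 CPM and 59 reached 1000 CPM. The 10 genes with the highest mean level took 8.91% of the counts, the first 100 took 22.9% and the first 1000 took 53.2%. For the first 100 this share was 23.2%, 23.0% and 22.5% in libraries 13, 15 and 17. Protein-coding genes took 94.7% of the counts. Most of the rest went to a few short structural RNAs, namely 2.37% to the RNA of the signal recognition particle (Rn7s1 and Rn7s2) and 1.3% to small nuclear RNAs, chiefly Rn7sk. Long noncoding RNAs took 0.759%, and 109 of them had a mean of 10 CPM or more.

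A CPM is a share of reads and grows with transcript length as well as with the number of transcripts, and no transcript lengths were used here, so ranks order genes by reads and not by molecules. Rn7s2 came first with 12744, 24135 and 27753 CPM, and Rn7sk, the RNA that holds the elongation factor P-TEFb inactive, came second with 8987, 12898 and 15099 CPM. Both were lowest in library 13. Glul, glutamine synthetase, was the first protein-coding gene with 12076, 11343 and 12667 CPM (12029 ± 663, SD, n = 3). It lies on chromosome 1 from 153899929 in the mm10 build and alone took over 1% of the reads. Aldoc, the brain form of the glycolytic enzyme aldolase, followed with 9206, 8049 and 8565 CPM. The 20 first genes also included Apoe, Cst3, Mt1, Slc1a2, Ndrg2, Ckb, Cpe, Sparcl1, Gapdh, Actb, Eef1a1, Clu, Tspan7, Prdx6 and Mt3. They run from apolipoprotein E and the protease inhibitor cystatin C through metallothioneins and the glutamate transporter GLT-1 to housekeeping genes. Actb was the steadiest of these 20, with 3704, 3601 and 3794 CPM, and Rn7s2 the most variable, with a highest level 2.18 times its lowest.

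**Figure D1:**
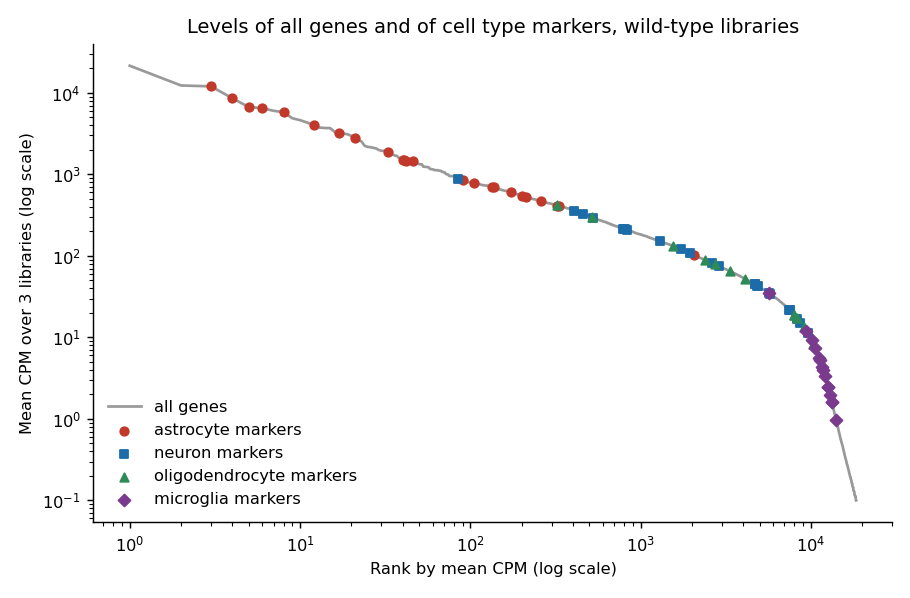
Mean CPM over the 3 wild-type libraries against rank, both on log scales, for all genes with at least 0.1 CPM (grey line) and for the marker genes of 4 cell types (points). Astrocyte markers lie at ranks 3 to 2062, while the microglia markers lie at the low end of the curve.

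The label astrocyte was checked against marker lists. All 24 astrocyte markers had a mean above 100 CPM, with a median of 1458 CPM and a lowest mean of 103 CPM, for Sox9. Aldh1l1, whose promoter drives the tag, had 519, 536 and 521 CPM (526 ± 9.18, SD, n = 3), so the libraries were nearly level for it. Sox9, a transcription factor of the astrocyte lineage, was as even, with 103, 104 and 101 CPM. Gfap, the intermediate filament protein of astrocytes, had 3072, 2303 and 2897 CPM and was lowest in library 15. Slc1a2, which encodes GLT-1, had 6380, 6325 and 4719 CPM, and Aqp4, the water channel of the endfeet, had 503, 427 and 313 CPM, both lowest in library 17. In mm10 Aldh1l1 starts at 90550768 on chromosome 6, Slc1a2 at 102658239 on chromosome 2, Gfap at 102887336 on chromosome 11 and Sox9 at 112782210 on chromosome 11.

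RNA of other brain cells was present at lower levels. The 24 neuron markers had a median of 59.8 CPM, and 10 of them passed 100 CPM. Snap25, a protein of the vesicle fusion machinery, had the highest level with 624, 1055 and 979 CPM. Camk2a, a kinase of excitatory synapses, had 104, 217 and 319 CPM, and Gad1, the GABA-synthesizing enzyme of inhibitory neurons, had 72.3, 120 and 171 CPM. Library 13 was the lowest for 23 of the 24 neuron markers, against 41.5% of all genes with a mean of 10 CPM or more. The summed share of the list was 0.224%, 0.373% and 0.422% in libraries 13, 15 and 17. Leaving out library 13 took the median level of the list to 72.1 CPM.

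Oligodendrocyte markers, genes of the myelin sheath, had a median of 58.8 CPM over 12 genes. Library 13 was the lowest for each of them, against 41.5% of all genes with a mean of 10 CPM or more. Mbp, myelin basic protein, had 81.0, 136 and 182 CPM. Markers of their precursors had a median of 5.02 CPM over 10 genes, but Olig1, which some astrocytes also express, had 178, 157 and 144 CPM. The defining precursor gene Pdgfra had 5.97, 10.7 and 14.8 CPM.

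Immune, vessel and border cells contributed little. The 15 microglia markers had a median of 3.96 CPM, with Tmem119 at 4.54, 4.20 and 4.08 CPM. Endothelial markers had a median of 1.34 CPM over 12 genes. Slc2a1, the glucose transporter GLUT1 that astrocytes also make, had 117, 101 and 56.8 CPM, whereas the endothelial genes Cldn5 and Pecam1 had means of 2.37 and 0.524 CPM. For 12 markers of mural cells and fibroblasts the median was 5.46 CPM. Blood cell genes were low as well, and the 5 on the list summed to 49.0, 108 and 80.9 CPM. The haemoglobin gene Hba-a2 had 2.65, 29.3 and 31.2 CPM. Its relative Hba-a1 had a mean of 26.8 CPM, which was 25.4 CPM without library 13, so that library was not low for it. Reads may be shared between the 2 genes, so their single values are uncertain. The choroid plexus gene Ttr, transthyretin, had 61.6, 205 and 9.85 CPM. Kl, Clic6 and Folr1 of the same list were also highest in library 15, with Clic6 at 1.53, 4.68 and 0.673 CPM. The other 3 of its 7 members with a mean of 1 CPM or more, Foxj1, Ccdc153 and Rarres2, were highest in library 13.

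**Figure D2:**
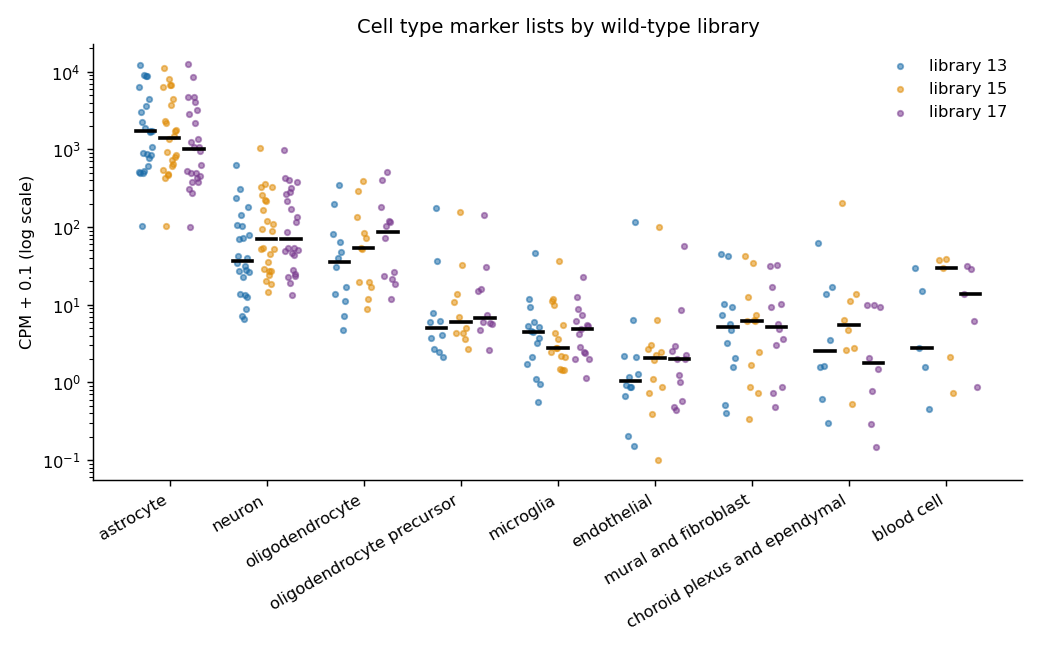
CPM plus 0.1 on a log scale for each gene of 9 cell type lists (points) in each wild-type library (colours), with the median of the list in that library (black bars). The astrocyte bars stand at 1702, 1409 and 1015 CPM in libraries 13, 15 and 17, and the neuron bars at 36.9, 70.6 and 70.5 CPM.

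Genes for clearing glutamate were among the most read in these ribosomes. Of the 9 genes on this list, 8 passed 100 CPM. Besides Glul and Slc1a2, Slc1a3, the glutamate transporter GLAST, had 2259, 2195 and 1240 CPM, and Glud1, glutamate dehydrogenase, had 1312, 1150 and 1029 CPM. Slc38a3, a transporter that releases glutamine to neurons, had 573, 506 and 227 CPM, with libraries 13 and 15 close together and library 17 at 0.421 times their mean. The aminotransferases Got1 and Got2 were lowest in library 13, as the neuron markers were, with Got1 at 109, 193 and 221 CPM. The part of neuronal RNA in these values was not tested.

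Astrocytes also clear GABA, and 5 of 6 genes on the list for its uptake and breakdown passed 100 CPM. Slc6a11, the mainly glial transporter GAT-3, had 640.3, 575 and 269 CPM. The enzymes of the list varied less between the libraries. Abat, GABA transaminase, had 939, 880 and 706 CPM. Maob, monoamine oxidase B, is on the list but is not itself an enzyme of GABA breakdown, and it had 112, 107 and 123 CPM. Slc6a13, a transporter mostly of the meninges and vessels, had a mean of 14.9 CPM.

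Of 13 genes for ions and pH, 8 passed 100 CPM. Car2, a carbonic anhydrase of the cytosol, had 849, 713 and 836 CPM, and Slc4a4, a sodium and bicarbonate cotransporter, had 605, 605 and 424 CPM. The inward rectifier Kcnj10, the potassium channel Kir4.1, spread more widely, with 371, 254 and 142 CPM, highest in library 13 and lowest in library 17.

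The endfoot list holds the water channel and the proteins that anchor it. Mlc1, a membrane protein mutated in a leukodystrophy with cysts, had 875, 726 and 492 CPM, and its partner Hepacam had 459, 478 and 354 CPM. The anchoring scaffold under the membrane was more even: Dtna, dystrobrevin, had 379, 350.05 and 314 CPM, and Dmd, dystrophin, had 128, 119 and 112 CPM. Of 7 connexins, 2 passed 100 CPM. These were the astrocyte pair Gja1 with 913, 926 and 501 CPM and Gjb6 with 495, 466 and 279 CPM.

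Lipid carriers were highly read but uneven. Apoe, the main lipoprotein of the brain, had 8745, 6701 and 4671 CPM, and Clu, the carrier clusterin, had 3662, 3697 and 2219 CPM. Lrp1, a receptor for such particles, had 409, 420 and 333 CPM, and the cholesterol pump Abca1 had 119, 97.4 and 61.7 CPM. Library 17 was the lowest for 8 of the 10 genes on the list, against 33.6% of all genes with a mean of 10 CPM or more.

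The metallothioneins are small proteins that bind zinc and copper. Their list, which also holds zinc transporters and Mtf1, took 1.16%, 0.929% and 1.20% of the counts. Mt1 had 6043, 4807 and 7227 CPM, Mt2 had 1738, 1251 and 1812 CPM and Mt3, the brain form, had 3418, 2761 and 2730 CPM. Mt1 was 3.48, 3.84 and 3.99 times Mt2, and its ratio to Mt3 was 1.77, 1.74 and 2.65. The ratio to Mt3 changed little between libraries 13 and 15, so it differed mainly in library 17. With 3 libraries, likeness of pattern cannot be judged. Both Mt1 and Mt2 were lowest in library 15. The transcription factor MTF-1 switches such genes on by metal response elements, and its own gene Mtf1 had 25.4, 32.9 and 32.4 CPM. The 250 bases before the RefSeq start of Mt2 (GRCm38.p6, the mm10 assembly, chr8:94172368-94172617, plus strand) are shown because Mt2, like Mt1, was lowest in library 15. Capitals mark the core of the element, searched as TGCACNC or TGCGCNC on both strands.
Mt2: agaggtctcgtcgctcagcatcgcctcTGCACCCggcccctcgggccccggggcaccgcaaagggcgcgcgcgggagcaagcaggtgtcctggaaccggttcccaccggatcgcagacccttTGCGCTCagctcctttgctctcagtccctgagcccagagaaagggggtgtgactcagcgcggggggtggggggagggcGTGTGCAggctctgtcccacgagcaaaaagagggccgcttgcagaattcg
The window holds 3 matches. Of 32851 promoter windows of the same length, 21.4% hold at least 1 match and 1.26% hold 3 or more. A match is a stretch of letters and not shown here to be a bound site.

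Genes of glycolysis were for the most part read evenly. On the list of 27 genes for glycolysis, lactate and glycogen, 20 passed 100 CPM, and the median SD of log2 CPM for its members at 10 CPM or more was 0.11, against 0.18 for all 9910 genes at that level. Pfkm, the muscle form of phosphofructokinase, had 748, 763 and 777 CPM, and Pgam1, phosphoglycerate mutase, had 818, 829.9 and 793 CPM. The summed share of the list was 2.70%, 2.56% and 2.64%. Its uneven members included the transporters Slc2a1 and Slc16a1, the lactate transporter MCT1, which had 79.5, 74.2 and 42.4 CPM. Slc16a3, the transporter MCT4, had a mean of only 1.26 CPM. Pygb and Pygm, the brain and muscle forms of glycogen phosphorylase, had means of 1240 and 175 CPM.

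Enzymes of fatty acid oxidation were also present, with 12 of 17 genes above 100 CPM. Acsbg1, an acyl-CoA synthetase typical of astrocytes, had 1688, 1474 and 1350 CPM, and Hadhb of the mitochondrial trifunctional protein had 541, 469 and 429 CPM. Cpt1a, which admits fatty acids to mitochondria, had 192, 165 and 165 CPM, whereas the muscle form Cpt1b had a mean of 0.291 CPM.

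All 20 genes of cholesterol synthesis had over 10 CPM. Hmgcs1, a synthase early in the pathway, had 594, 563 and 641 CPM. Library 17 was the lowest for 14 of the 20, against 33.6% of all genes at 10 CPM or more. The largest gap was at Dhcr7, the last reductase of the pathway, with 66.1, 65.4 and 28.4 CPM.

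Serine, the precursor of the receptor co-agonist D-serine, is made largely by astrocytes, and 8 of the 12 genes of this list passed 100 CPM. Phgdh, the first enzyme of the pathway, had 648, 631 and 548 CPM, and Psat1, the second, had 648, 580 and 479.7 CPM. Serine racemase, Srr, had 108, 111 and 130 CPM. The glycine transporter Slc6a9 had 87.7, 81.5 and 38.9 CPM, and Gldc, a subunit of the glycine cleavage system, had 219, 172 and 208 CPM.

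The antioxidant list had 10 of its 19 genes above 100 CPM and took 1.31%, 1.09% and 1.04% of the counts. Prdx6, a peroxiredoxin, had 3742, 3012 and 2578 CPM, and Gstm1, a glutathione transferase, had 2936, 2736 and 2349 CPM. Library 17 was the lowest for 14 of the 19 genes and library 13 for none, against 33.6% and 41.5% of all genes at 10 CPM or more. Sod2, the superoxide dismutase of mitochondria, was among the steadiest genes of any list with 287, 284 and 283 CPM. Hmox1, a stress-induced enzyme, had a mean of 17.2 CPM.

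Of 36 receptors for transmitters, peptides and growth factors, 13 passed 100 CPM. Gpr37l1, a receptor found mainly on astrocytes, had 1716, 1763 and 951 CPM, and S1pr1, a receptor for sphingosine 1-phosphate, had 1369, 1428 and 901 CPM. Ntsr2, a neurotensin receptor, had 1064, 853 and 629 CPM, and Gabbr1, a subunit of the GABA-B receptor, had 1061, 856 and 748 CPM. These were each lowest in library 17, as were 24 of the 33 members with a mean of at least 1 CPM. Over all genes at 10 CPM or more this share was 33.6%.

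The metabotropic glutamate receptors are of interest because the series title names mGluR5. Grm3, the main such receptor of adult astrocytes, had 339, 299 and 235 CPM. Grm5, which encodes mGluR5, had 35.8, 56.9 and 73.4 CPM. It was lowest in library 13 and highest in library 17, the order of most neuron markers, and the same held for the AMPA receptor gene Gria1 with 35.8, 72.9 and 137 CPM. The part of neuronal RNA in these levels was not tested. The adrenergic receptor Adra1a had a mean of 21.8 CPM, and the purinergic receptor P2ry1 had a mean of 1.21 CPM.

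Transcription factors of the astrocyte lineage were the most even of the functional lists after glycolysis, with a median SD of log2 CPM of 0.14. Of 31 genes, 15 passed 100 CPM. Id3, an inhibitor of DNA binding, had 543, 401 and 442 CPM, Lhx2 had 274, 254 and 214 CPM, and Sox2 had 183, 191 and 164 CPM. Stat3, which carries cytokine signals, had 114, 112 and 112 CPM. Emx2, a forebrain factor, had a mean of 16.5 CPM, and Dbx2 one of 266 CPM.

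The Notch pathway holds receptors, ligands and targets. The receptor Notch1 had 84.9, 84.7 and 47.4 CPM, and Notch2 had 70.2, 51.0 and 40.4 CPM. Ligands were lower: Jag1 had a mean of 7.62 CPM and Dll4 0.224 CPM. Among targets, Nrarp had 168, 147 and 94.4 CPM, Hey1 had 143, 128 and 124 CPM and Hes5 had 113, 75.9 and 78.4 CPM. Library 17 was the lowest for 11 of the 15 members with a mean of 1 CPM or more, against 33.6% of all genes at 10 CPM or more.

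Of the 17 secreted or adhesive factors that act on synapses, Sparcl1, or hevin, led with 4463, 3981 and 2819 CPM. The proteoglycans Bcan and Ncan had 860, 806 and 454 CPM and 540, 473 and 328 CPM. Chrdl1, a factor that matures AMPA receptors, had 54.8, 39.7 and 21.9 CPM. The glypicans Gpc4 and Gpc6 had means of 9.60 and 19.4 CPM. Thrombospondins promote synapse formation in development, and Thbs1 had a mean of 0.696 CPM, Thbs2 one of 5.93 CPM and Thbs4 one of 32.3 CPM.

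Phagocytosis genes included both bridging ligands and receptors. Mfge8, a ligand that binds exposed phosphatidylserine, had 1021, 920.4 and 537 CPM. The receptors Axl, Mertk and Megf10 had 194, 175 and 91.1 CPM, then 114, 102 and 64.5 CPM, then 91.7, 87.8 and 48.8 CPM. Tyro3, the third kinase of the Axl family, was more even and lowest in library 13, with 56.7, 72.7 and 73.9 CPM. Of all functional lists, this one was the lowest in library 17, by a median of 0.45 log2 units below the mean of the 3 libraries.

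Genes that mark reactive astrocytes after injury were mostly low. Only Gfap of 32 had a mean above 100 CPM, 21 had a mean of 1 CPM or more, and the median was 2.15 CPM. Vim, another filament protein, had 71.6, 90.3 and 96.3 CPM. Lcn2, lipocalin 2, had no count in any library, and C3, a complement component, had 1.63, 0.289 and 0 CPM. Serpina3n, a protease inhibitor, was uneven: it had 149, 71.5 and 12.9 CPM, a spread of 11.6-fold. S100a10 of the same list was lowest in library 15 with 47.9, 10.1 and 88.1 CPM.

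Immediate early genes, which neurons and glia switch on within minutes of a stimulus, stayed under 100 CPM in all 17 cases. Jund had the highest mean, 86.7 CPM, and Fos had 16.8, 15.5 and 12.2 CPM. Arc, mostly neuronal, had 46.9, 29.0 and 62.7 CPM. Clock genes were steadier: Tef had 228, 242 and 230 CPM, Nr1d1 had 176, 160 and 158 CPM and Per2 had 12.2, 10.03 and 8.26 CPM. Dbp, an output gene of the clock, ranged most among the 7 clock genes above 100 CPM, with 220, 188 and 120 CPM. The times of day of dissection are not in the labels.

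Some RNAs in these libraries are not known as templates of cytosolic ribosomes. The nuclear RNA Malat1 had 262, 434 and 457 CPM, Meg3 had 26.2, 43.4 and 54.7 CPM and Neat1 had 4.80, 11.0 and 11.8 CPM. Library 13 was the lowest for 12 of the 15 long noncoding RNAs with a mean of 1 CPM or more. Over all genes at 10 CPM or more this share was 41.5%. Mitochondrially encoded RNAs, which are translated inside mitochondria, took 0.0274%, 0.0681% and 0.0709% of the counts, again lowest in library 13. The ribosomal mt-Rnr2 had 131, 399 and 329 CPM and mt-Co1 had 75.8, 121 and 179 CPM. Both mt-Co2 and mt-Nd4l are listed at 0 in all 3 libraries, and mt-Atp6 in libraries 13 and 15, although all cells use these genes, and an exact 0 can be a failed estimate.

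RNA-binding proteins tied to the series were read at moderate levels. The FMRP relatives Fxr1 and Fxr2 had means of 65.1 and 63.7 CPM. The FMRP partner Cyfip1 had 313, 255 and 245 CPM, while Cyfip2, its mostly neuronal relative, had 166, 334 and 436 CPM and was lowest in library 13. Arpp21, whose intron holds one of the copies of miR-128 named in the title, had 124, 127 and 141 CPM, and R3hdm1, host of the other copy, had 35.4, 54.6 and 56.4 CPM. Rpl10a, the ribosomal protein usually tagged in TRAP mice, had 457, 640 and 519 CPM.

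The spread between libraries was small for most genes. Over 9910 genes with a mean of 10 CPM or more, the median SD of log2(CPM + 0.5) was 0.18, and 21.4% of these genes had an SD under 0.1. Without library 13 the median SD was 0.12. The common biological coefficient of variation from edgeR was 0.236. The entries of a library differed far less: their median SD was 0.042 to 0.044 log2 units, against 0.12 to 0.20 between pairs of libraries. Libraries 15 and 17 were the closest by this measure and 13 and 17 the farthest apart. By the Pearson correlation of log2 levels across these features, which are not independent replicates, 13 and 15 were the closest at 0.964, against 0.939 for 15 and 17 and 0.911 for 13 and 17. An SD over 1 log2 unit was found for 93 genes, or 0.938%. The steadiest genes by the naming rule were Polg, Pnpt1, Vapa, Ankrd27, Evi5l, Pyroxd1, Rbm22, Sfpq, Eif4g1 and Slc25a23. Polg, the DNA polymerase of mitochondria, had 50.4, 50.6 and 50.6 CPM, and Eif4g1, a translation initiation factor, had 186, 185 and 187 CPM.

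Departures from the mean went along with gene lists in 2 ways. First, markers of neurons and oligodendrocytes, long noncoding RNAs and mitochondrially encoded RNAs were low in library 13. The median departure of that library was -0.64 for neuron markers, -0.60 for oligodendrocyte markers and -0.98 for mitochondrial RNAs, in log2 units, against -0.003 for all genes at 10 CPM or more. Second, some astrocyte lists were low in library 17, with a median departure of -0.39 log2 units for astrocyte markers and -0.34 for the lipid carriers. Others were near level there, with -0.03 for glycolysis, -0.05 for glutamate uptake and -0.01 for lineage transcription factors, or above it, with 0.05 for connexins and 0.11 for reactive genes. The signs for these lists were the same with TMM scaling and with DESeq2 size factors. The value for all genes in library 13 was then 0.032 and 0.031. Without library 17 the median SD of the astrocyte markers was 0.06 in place of 0.39, and without library 13 that of the neuron markers was 0.18 in place of 0.55.

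**Figure D3:**
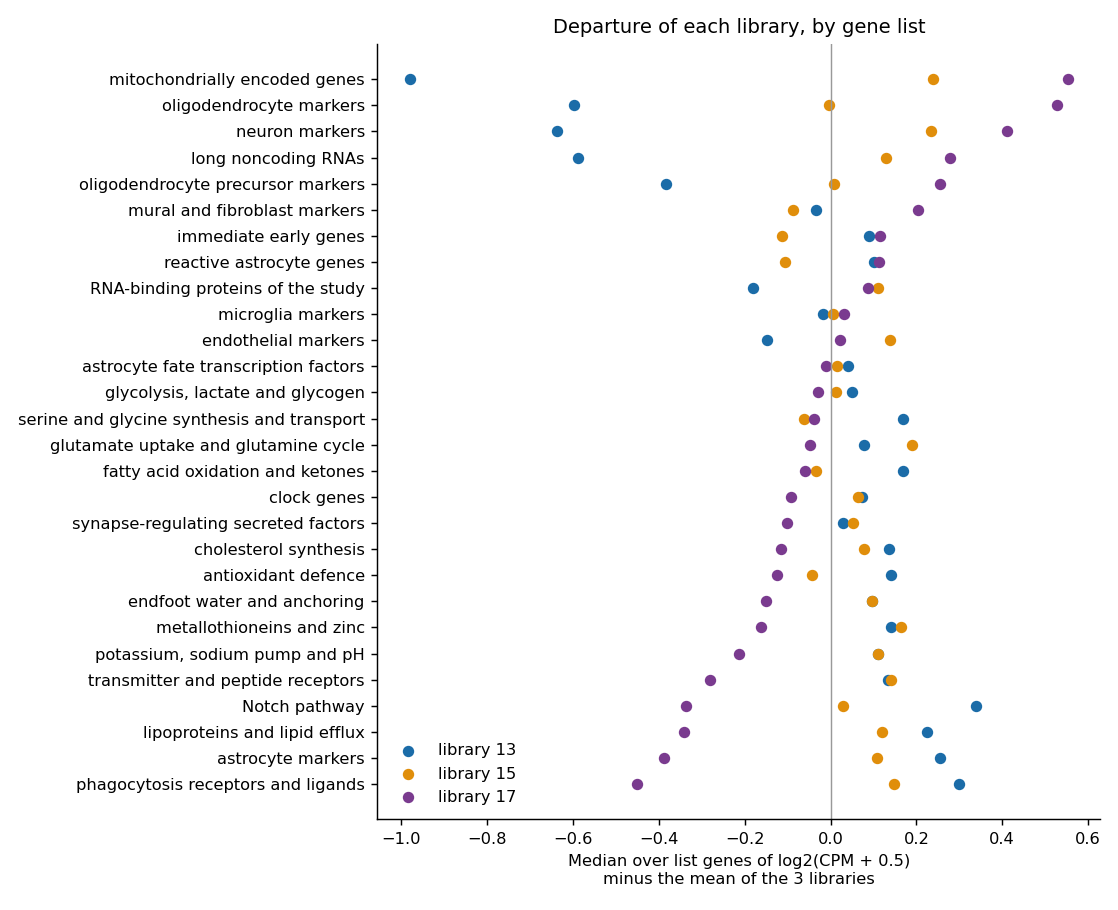
Median over the members of each list of log2(CPM + 0.5) in a library (colours) minus the mean of the 3 libraries, for lists with at least 8 members at a mean of 1 CPM. Neuron and oligodendrocyte markers lie left of 0 in library 13, and astrocyte markers and phagocytosis genes lie left of 0 in library 17.

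The low values of library 17 did not extend to all astrocyte genes. Glul, Aldoc, Aldh1l1 and Sox9 were level with the other libraries, while Apoe, Cst3, Slc1a3, Gja1 and Fgfr3 stood at 0.605, 0.525, 0.557, 0.545 and 0.529 times the mean of libraries 13 and 15. After these values were seen, the genes of 18 lists, the astrocyte markers and 17 lists of astrocyte functions, were sorted by the usual site of their protein, from textbook knowledge, where their mean was 10 CPM or more. Markers of other cell types were not sorted, and the neuron and oligodendrocyte markers at that level had median ratios of library 17 to the mean of the others of 1.47 and 1.68. Of 101 genes for plasma membrane or secreted proteins, 78 were lowest in library 17, and the median ratio of library 17 to the mean of the others was 0.703. For 99 genes of the cytosol or nucleus 44 were lowest there, with a median ratio of 0.972. Genes for membrane proteins of the endoplasmic reticulum or Golgi gave 0.780 over 19 genes, and those for mitochondrial proteins made in the cytosol gave 0.940 over 21. Over all genes at that level, library 17 was the lowest for 33.6% and the median ratio was 1.02.

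The astrocyte markers, which are part of these genes and include some that prompted the sorting, showed the same split. Library 17 was the lowest for all 17 that encode plasma membrane or secreted proteins, at a median ratio of 0.605, and for 3 of 7 that encode proteins of the cytosol or nucleus, at 0.988. An exception among the latter was S100b, a calcium-binding protein of the cytosol, with 1888, 1344 and 1086 CPM. Gene families taken by symbol alone gave a smaller gap. The 136 Slc transporters other than Slc25 had a median ratio of 0.850 and the 35 Slc25 carriers of the mitochondrial inner membrane 0.942. Ribosomal proteins (77 genes), proteasome subunits (35 genes) and nuclear genes of oxidative phosphorylation (78 genes) had ratios of 1.00, 1.08 and 0.971. As background, transcripts of secreted and membrane proteins are translated on ribosomes at the endoplasmic reticulum and most others on free ribosomes. These groupings were made on the values they describe and had no test. Neuron markers stood 0.41 log2 units above the mean in library 17 by their median, and their part in the split was not tested.

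**Figure D4:**
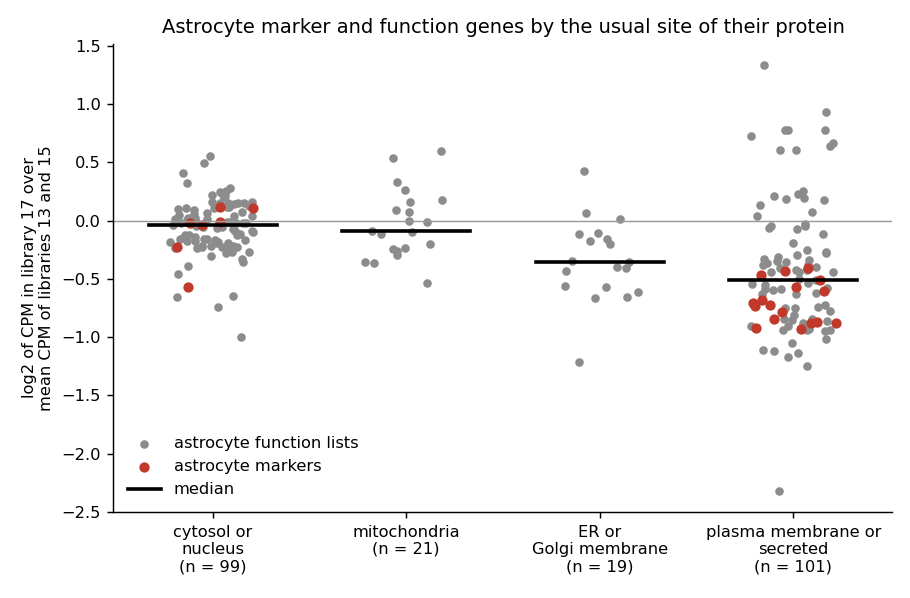
Log2 of the CPM in library 17 over the mean CPM of libraries 13 and 15 for genes of the astrocyte marker list and 17 astrocyte function lists with a mean of at least 10 CPM, by the usual site of their protein, with astrocyte markers in red and the median of each group as a bar. The medians correspond to ratios of 0.972, 0.940, 0.780 and 0.703 from left to right.

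Pseudogenes were frequent among the features with the widest spread, with 24 of the 93 genes over 1 log2 unit listed as such by RefSeq, and 5 more as transcribed pseudogenes. Among all 9910 genes with a mean of 10 CPM or more, 38 were pseudogenes and 15 transcribed pseudogenes. Protein-coding genes made up 47 of the 93. Of the 10 with the largest SD, 7 were near 0 in library 17 and far higher in both of the others, namely Gm26825, Gm13394, Rpl34-ps1, Gm6166, Gm10260, Gm7292 and Gm8797. RefSeq lists 4 of these as pseudogenes, and the other 3 of the 10, Hist1h4m, Gm4724 and Gm14305, were abundant in a single library. Gm26825 had 428, 544 and 1.35 CPM, Gm13394 had 386, 395 and 1.44 CPM and Rpl34-ps1 had 91.2, 88.5 and 0.048 CPM. Over all 38 pseudogenes with a mean of 10 CPM or more, 30 were lowest in library 17, against 33.6% of all genes at that level. Their median was 28.9, 29.4 and 2.81 CPM. In library 17, 15 of them were under 1 CPM, against none in the other libraries. RSEM shares a read that fits several near-identical features among them, so single values of such copies are uncertain.

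A few pairs of a gene and its copy were picked after their values were seen, without a search of all such pairs. In these the sum of gene and copy was steadier than either. Rps2, a protein of the small ribosomal subunit, had 264, 129 and 355 CPM, and its copy Rps2-ps10 had 118, 254 and 1.297 CPM. Their sums were 382, 383 and 356 CPM, which brought the coefficient of variation from 45.6% for the gene to 3.99%. Rpl34 with Rpl34-ps1 gave sums of 332, 307 and 319 CPM, and Rps13 with Rps13-ps1 gave 308, 268 and 303 CPM. Rpl3 with Rpl3-ps1 gave 781, 748 and 799 CPM. Glns-ps1, a copy of glutamine synthetase, had 234, 105 and 2.16 CPM, under 2% of the reads of Glul, so it left the level of Glul nearly as it was. The coefficient of variation was 5.51% for Glul and 5.17% for the sum.

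**Figure D5:**
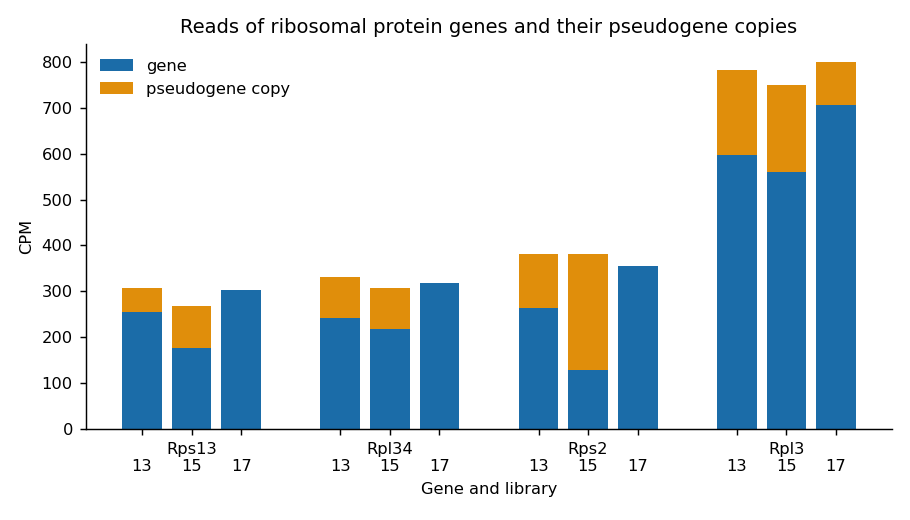
CPM of 4 ribosomal protein genes (blue) with their pseudogene copies stacked on top (orange) in wild-type libraries 13, 15 and 17. The stacks are of similar height within a gene, while the orange part is close to 0 in library 17 for Rps13, Rpl34 and Rps2.

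A few features were far higher in 1 library than in the others. Gm4724, Gm14305 and Gm14295 had 61.7, 50.2 and 37.2 CPM in library 17 and at most 0.204 CPM in the others, and all 3 lie on chromosome 2 between 175418037 and 176814092 in mm10. Hist1h4m, a histone H4 gene with many near-identical relatives, had 125 CPM in library 15 and at most 0.255 CPM elsewhere. Eno1b, a copy of the enolase gene Eno1, had 1.22, 115 and 1.297 CPM. Tuba1c, a tubulin gene with close relatives, had 1.73, 34.5 and 2.69 CPM.

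Other protein-coding genes varied without a named copy. Aldh1a1, a retinaldehyde dehydrogenase, had 121, 120 and 992 CPM, so that library 17 stood 8.24 times above the mean of the others. Also highest there was Etnppl, an enzyme of phosphoethanolamine breakdown found in astrocytes, with 16.5, 26.3 and 82.7 CPM. In contrast Elovl5, a fatty acid elongase, had 389, 391.8 and 165 CPM. Adora2b, an adenosine receptor, had 110, 72.8 and 18.3 CPM. Pttg1, securin, had 1.68, 37.2 and 72.5 CPM, and Fam163a had 2.86, 44.4 and 115 CPM. The entries of a library were close for Aldh1a1, with 997 and 987 CPM in library 17, and for Pttg1, with 74.8 and 70.4 CPM there. Those of Fam163a were 115.1 and 114.8 CPM in library 17 and 3.81 and 1.97 CPM in library 13.

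Short structural RNAs also set the libraries apart. Rpph1, the RNA of ribonuclease P, had 163, 336 and 1430 CPM, and Rmrp, that of the related ribonuclease MRP, had 260, 439 and 614 CPM. Like Rn7s2 and Rn7sk, both were lowest in library 13 and highest in library 17.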

How the data were processed

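Stranded total-RNA libraries were made from ribosome-bound RNA after ribosomal RNA depletion and read as pairs, per the labels' protocols. The deposited table holds expected counts of RSEM for 52550 features in each of 12 entries, with no scaling, per the file headers. Per the submitters' processing notes, STAR 2.5.3a, RSEM 1.3.0 and edgeR were used with build mm10, with strand setting and annotation not given in the sources used here. Reads of a gene and an antisense partner, or of near-identical copies, may therefore be shared between features.

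The 2 entries of each wild-type library were summed, rounded and counted as 1 sample. The features CT010467.1, Lars2 and AY036118, which collect ribosomal RNA reads, were left out, and CPM was computed on the remaining counts. Where features shared a symbol, the one with the higher mean was used. Spread is the SD over 3 libraries of log2(CPM + 0.5) for genes with a mean of 10 CPM or more. The biological coefficient of variation came from edgeR 4.0.16 in R 4.3.3 with TMM scaling, after filterByExpr, and the code was tested on simulated counts. Symbols were matched to RefSeq tables of GRCm38.p6 for biotype and position, which matched 9848 of 9910 genes with a mean of 10 CPM or more. No group was compared with another, so no test was made.

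The members and lists were chosen with earlier results of these data known. The naming rule takes all list members, the 20 highest genes, the 10 largest and the 10 smallest SDs and, for each library, the 8 genes highest and the 8 lowest relative to the others. A few more genes, chosen after their values were seen, are named beside them. Alternatives were other scalings, either entry alone, the left-out features kept, other filters, another pseudocount and each library left out in turn.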

Additional observations from a re-analysis of the deposited data

How the results depend on the processing

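The count of genes at 1 CPM or more in every library (13171) lay between 13054 and 13484 under all alternatives. The astrocyte and neuron medians moved by less than the SD between libraries under each alternative that kept all libraries. With 1 library left out they ranged from 1286 to 1598 CPM and from 53.0 to 72.1 CPM. A shift beyond that SD is then hardly possible, so leaving out a library could not test the medians by this measure. Keeping the ribosomal RNA features raised the share of the 100 highest genes from 22.9% to 25.3%. The median SD of log2 CPM (0.184) was 0.189 with TMM, 0.189 with DESeq2 size factors, 0.196 with those features kept, 0.191 with the first entries only, 0.191 with the second entries only and 0.220 for genes with a mean of 1 CPM or more. Leaving out 1 library gave 0.120 to 0.196, lowest without library 13. The coefficient of variation (0.236) was 0.215 with the first entries only, 0.218 with the second entries only, 0.333 with no filter on low counts and 0.207 to 0.288 with 1 library left out, lowest without library 17. The cause of these shifts was not tested. Of 587 genes followed singly, the mean level moved by more than its SD for 31 with the ribosomal RNA features kept. The number was 23 with the first entries only, 17 with the second entries only and none under TMM or DESeq2 size factors. None of the 587 did so with 1 of the 3 libraries left out, but a mean cannot then move by more than its SD. Leaving out a library therefore could not test single genes by this measure. CPM per kilobase was not run, because no transcript lengths were used. No paired analysis was possible because no groups were compared. Genes under about 0.15 CPM cannot be told from 0 at this depth.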

Other observations

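Genes outside the lists, picked after their values were seen, gave further examples of both kinds of departure in library 17. Ptn, the secreted growth factor pleiotrophin, had 606, 529 and 314 CPM in libraries 13, 15 and 17. Igfbp2, a secreted binding protein of insulin-like growth factors, had 190.0, 176 and 91.5 CPM, and Jam2, an adhesion molecule of the plasma membrane, had 169, 152 and 86.8 CPM. Grin2c, a subunit of NMDA receptors, had 222, 199 and 111 CPM, and Lfng, a Golgi enzyme that modifies Notch receptors, had 91.8, 83.6 and 38.4 CPM. In each of these, libraries 13 and 15 lay close together and library 17 lay well below both.

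Some genes for proteins of the cytosol or nucleus stood higher in library 17. Hopx, a small homeodomain protein, had 340.4, 304 and 511 CPM, Ass1, argininosuccinate synthase, had 44.1, 40.3 and 100.1 CPM, and Psmb5, a catalytic subunit of the proteasome, had 104, 97.6 and 154 CPM. These were selected for their direction and say nothing of how common it is.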
